A study of Mus musculus with 6 samples.

Results

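Untreated CD8-negative dendritic cells (DCs) from mouse spleen are described here by the abundance of their messenger RNA, as RNA-seq read counts per gene. They make up 3 of the 6 libraries of the series, chosen because their treatment label reads None. The other 3 libraries, from cells of mice given CpG, were not used. All 3 untreated libraries came from C57BL/6 mice and carry the sample numbers 2, 3 and 4, and they are called untreated 2, 3 and 4. Per the labels' protocols, DCs were enriched from the spleen and stained with antibodies. The fraction negative for CD8 was then sorted by flow cytometry and lysed at once, with no culture. RNA was prepared with the QIAGEN RNEasy plus kit, the molecule sequenced was polyadenylated RNA, and the library protocol was a standard Illumina one. The series design text calls the samples biological replicates. The sources used here give neither the age and sex of the mice nor the number of spleens behind a sample nor the other antibodies of the sort. With 1 group of 3 libraries there is no test between groups, so every value is a description of these libraries, and the spread among them may be technical.

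Conventional DCs of the mouse spleen fall into 2 main kinds. The cDC1 subset carries CD8 and the chemokine receptor XCR1 and presents material of other cells on MHC class I. The cDC2 subset lacks CD8, carries SIRPα, and in large part CD4, the lectin DCIR2 (Clec4a4) and the adhesion molecule ESAM, and is known for presenting peptides on MHC class II to CD4+ T cells. Class II molecules are pairs of an alpha and a beta chain that are held by the invariant chain (Cd74) until cathepsins cut it away in endosomes and the chaperone DM exchanges its remnant for a peptide.

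The libraries held 7855500, 8048414 and 8228140 counts, so that 1 count stood for 0.127, 0.124 and 0.122 CPM (counts scaled to a library total of 1000000). Between 14750 and 14998 genes had at least 1 count in a library. Untreated 3 and 4 resembled each other more than either resembled untreated 2. Over genes with a mean of at least 10 CPM, log2 CPM values correlated across genes at 0.993 between untreated 3 and 4, at 0.971 between 2 and 3 and at 0.968 between 2 and 4, genes not being independent replicates. The chi-square value per degree of freedom was 3.30 for untreated 3 and 4, 18.7 for 2 and 3 and 20.9 for 2 and 4, so no pair agreed within sampling noise and each library was counted separately.

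Untreated 2 stood apart along gene length. Over 8809 genes with a mean of at least 10 CPM, the log2 deviation of untreated 2 from the mean of the 3 libraries had a Spearman correlation of -0.76 with gene length across genes, against 0.66 for untreated 3 and 0.60 for untreated 4, values that are tied to one another because the 3 deviations of a gene cancel. In the 65 genes shorter than 500 bases its median deviation was 0.53 on the log2 scale, in the 3643 genes of 2000 to 4000 bases it was 0.01, and in the 395 genes of 8000 bases or more it was -0.45. A long gene therefore tended to have its lowest value in untreated 2 and a short gene its highest, and the part of this trend in any single gene below was not tested.

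**Figure D1:**
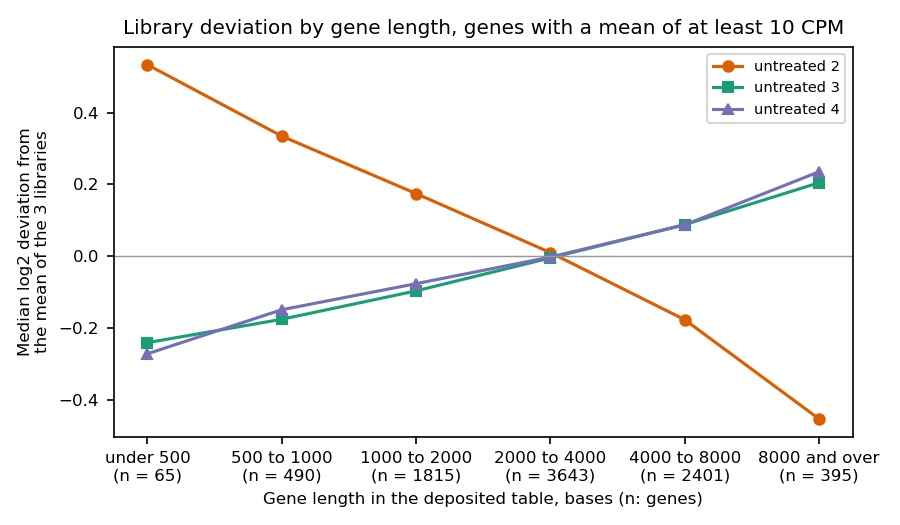
Median log2 deviation of each untreated library from the mean of the 3 (vertical axis) in 6 classes of gene length in bases (horizontal axis), over genes with a mean of at least 10 CPM, with the number of genes under each class. Untreated 2 falls from 0.53 in the shortest class to -0.45 in the longest, while untreated 3 and 4 run close together in the other direction.

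Levels of different genes are compared as TPM, for which each count was divided by the gene length in the deposited table and the results scaled to a sum of 1000000 per library. At least 1 TPM was reached in all 3 libraries by 11608 of 27179 genes, at least 10 TPM by 8489, at least 100 TPM by 1775 and at least 1000 TPM by 78. No count in any of the 3 libraries was found for 10915 genes. The 10 genes of highest mean TPM held 12.96% ± 0.979 of TPM (SD, n = 3), the top 100 held 27.2% ± 1.82 and the top 1000 held 57.4% ± 1.72.

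Antigen presentation dominated the profile. Exactly 4 genes exceeded 10000 TPM in every library, and all 4 belong to the MHC class II system. They were Cd74 and the class II chain genes H2-Aa, H2-Ab1 and H2-Eb1, and together they held 9.05% ± 0.557 of TPM. Cd74, which encodes the invariant chain, stood at 41829, 37957 and 40076 TPM in untreated 2, 3 and 4. H2-Aa, the alpha chain gene of I-A (Entrez 14960, GRCm38 chromosome 17, 34282744 to 34287823), stood at 22975, 20384 and 21053 TPM. H2-Ab1, its beta chain gene (Entrez 14961, chromosome 17, 34263227 to 34269418), stood at 17338, 14617 and 15906 TPM. In these 3 genes untreated 2 was the highest library and untreated 3 the lowest. The beta chain gene of I-E, H2-Eb1 (Entrez 14969, chromosome 17, 34305867 to 34316674), reached 14239, 12354 and 12774 TPM, in the same order of libraries. After removal of the trend with length, Cd74 stood at 22592, 22630 and 23675 CPM, with untreated 2 and 3 close together. Untreated 2 was then the lowest library for H2-Aa, at 8950, 9395 and 9600 CPM. H2-Ab1 was still lowest in untreated 3, at 7675, 7453 and 8026 CPM. H2-Eb1 kept its order of libraries, at 9315, 8553 and 8815 CPM. Without the gene length scale the same 4 genes remained the top 4, and Cd74 alone took 2.31% of counts as a mean of the 3 libraries.

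The other genes of the class II route were present at far lower levels, and each of the 11 genes on this list was above 100 TPM in every library. H2-DMa, a chain of the peptide exchange factor DM, was at 1670, 1622 and 1734 TPM. Its partner chain genes H2-DMb2 and H2-DMb1 had means of 885 and 425 TPM. Of the 50-base stretches in coding transcripts of these genes 24.8% and 27.2% also lay in transcripts of other genes, so their division of reads is uncertain. H2-Oa and H2-Ob, the chains of the DM inhibitor DO, were at 868, 797 and 772 TPM and at 620, 641 and 571 TPM. Ciita, the transcriptional activator on which class II genes depend, stood at 411, 689 and 718 TPM. It is 5693 bases long and was lowest in untreated 2, and after removal of the trend with length its CPM values were 1177, 1432 and 1505.

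Class II promoters carry a shared upstream module in which an X box and a Y box lie at a set distance, as textbook background. The sequences before the start of 4 class II genes are shown because each held both sets of letters on the sense strand. Capitals mark the letters GCAAC, the core of the X1 part of the X box, and CTGATTGG, the Y box read as an inverted CCAAT, which do not overlap. They are the 150 bases before the start used in the RefSeq promoter table, written 5′ to 3′ on the strand of the gene, from RefSeq on GRCm38.p6. In H2-Eb2 that start lies inside the span annotated for the gene, which begins upstream at 34325503. Only the copy that forms the pair is in capitals, and H2-Eb2 holds a further GCAAC near its end in lower case.
H2-Aa (chr17:34287824-34287973, minus strand): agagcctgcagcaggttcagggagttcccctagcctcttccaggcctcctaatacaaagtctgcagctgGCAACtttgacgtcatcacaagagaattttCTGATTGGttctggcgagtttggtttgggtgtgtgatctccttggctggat
H2-Eb1 (chr17:34305717-34305866, plus strand): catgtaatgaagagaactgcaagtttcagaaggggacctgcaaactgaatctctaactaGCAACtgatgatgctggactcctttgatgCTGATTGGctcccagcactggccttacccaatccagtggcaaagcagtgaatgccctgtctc
H2-Eb2 (chr17:34325525-34325674, plus strand): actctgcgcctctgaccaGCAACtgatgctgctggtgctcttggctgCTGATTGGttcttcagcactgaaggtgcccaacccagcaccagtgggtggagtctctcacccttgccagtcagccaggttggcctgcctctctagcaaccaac
H2-Oa (chr17:34092229-34092378, plus strand): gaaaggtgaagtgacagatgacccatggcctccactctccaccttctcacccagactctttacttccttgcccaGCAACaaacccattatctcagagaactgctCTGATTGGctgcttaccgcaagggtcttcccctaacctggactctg

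The Y box letters began 30 bases after the X1 letters in H2-Aa and H2-Oa and 29 bases after them in H2-Eb1 and H2-Eb2. The X1 letters began 81, 91, 132 and 76 bases before the start in H2-Aa, H2-Eb1, H2-Eb2 and H2-Oa. Of 10 class II genes listed for the search, the windows of 8 were examined. H2-Ab1 had no entry in the RefSeq table, and Cd74, on chromosome 18, was left out of this step. The 4 genes shown held the pair with the Y letters beginning 15 to 35 bases after the X1 letters, a range set after the sequences were seen. Only exact letters were searched for, so windows without the pair may hold near matches. That of H2-Ob, for example, holds GCAAC followed by TTGATTGG. Over all 32851 promoter windows of 300 bases, from 250 before to 50 after the start, 35.2% held the X1 letters on either strand, 4.10% held the Y letters on either strand and 0.0852% held the pair. On the sense strand the pair was in 14 windows of 13 genes, 4 of which are those shown. The 4 genes with the pair spanned a wide range of levels, with means of 21471 TPM for H2-Aa, 13123 TPM for H2-Eb1, 812 TPM for H2-Oa and 384 TPM for H2-Eb2. A match of letters is a description of the sequence and was not tied to binding here.

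**Figure D2:**
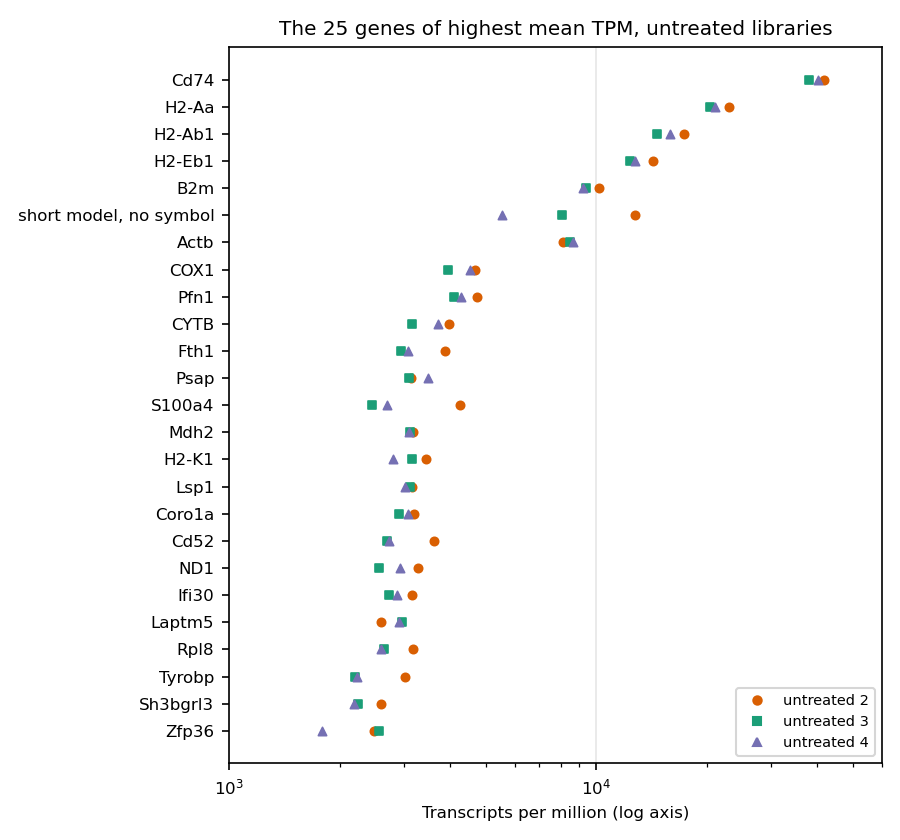
TPM on a log axis of the 25 genes of highest mean TPM, 1 symbol for each untreated library. The 4 class II genes lie above 10000 TPM in every library, and the symbols of most other genes lie close together, with S100a4 and a short gene model without a symbol as the wider ones.

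The 18 genes of MHC class I presentation held 1.84% ± 0.0838 of TPM, and 14 of them were above 100 TPM in every library. B2m, the light chain shared by class I molecules (Entrez 12010, chromosome 2, 122147687 to 122153082), was at 10148, 9397 and 9199 TPM. The heavy chain gene H2-K1 was at 3434, 3146 and 2794 TPM and H2-D1 at 1707, 1707 and 1669 TPM, so untreated 4 was lowest in all 3 of these genes. This held for H2-K1 alone once the trend in length was removed, and untreated 2 was lowest for B2m, at 3064, 3535 and 3424 CPM, and for H2-D1, at 1169, 1224 and 1195 CPM. Tap1, whose product carries peptides into the endoplasmic reticulum, was at 392, 421 and 374 TPM, and the endoplasmic chaperone genes Calr and Pdia3 had means of 548 and 462 TPM. Nlrc5, which activates class I genes as Ciita does class II genes, had a mean of 70.5 TPM against 606 TPM for Ciita. The 19 proteasome genes, which supply class I peptides, held 0.542% ± 0.0742 of TPM, led by the immunoproteasome subunit genes Psmb8 at 906, 741 and 769 TPM and Psmb9 at 868, 737 and 694 TPM. Untreated 2 was the highest library in 18 of these 19 proteasome genes, whose median length was 977 bases, against a median of 2629 bases over genes with a mean of at least 1 TPM. Over all such genes untreated 2 was highest in 28.1%. With the trend in length removed it was highest in 13 of the 19, against 38.6% of genes with a mean of at least 10 CPM.

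Endosomal proteases and their inhibitors were led by a few genes. The 14 genes of cathepsins and legumain held 0.571% ± 0.0239 of TPM. Ctss, the cathepsin known for the last cut of the invariant chain in DCs and B cells, was at 2160, 1942 and 2110 TPM. Ctsz and Ctsh had means of 1377 and 871 TPM. Ctsl, the cathepsin that does this work in the thymic epithelium, was at 7.70, 10.02 and 7.76 TPM, and Ctsk, a protease of osteoclasts, was at 0.773, 0.430 and 0 TPM. Cst3, the cathepsin inhibitor cystatin C, was at 1412, 1051 and 1143 TPM. Its CPM values with the trend in length removed were 360.0, 346 and 372, highest in untreated 4. Ifi30, which encodes the endosomal thiol reductase GILT, was among the 25 most abundant genes at 3153, 2726 and 2858 TPM.

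The 20 genes of the actin cytoskeleton held 2.84% ± 0.0468 of TPM and 2.34% of counts. Actb, beta-actin, was at 8111, 8455 and 8617 TPM. Pfn1, encoding the actin monomer binder profilin, was at 4743, 4098 and 4291 TPM, and Coro1a, encoding the coat protein coronin of blood cells, at 3186, 2903 and 3067 TPM. Lcp1, encoding the bundling protein L-plastin, was at 1723, 2265 and 2385 TPM, lowest in untreated 2. In contrast, Actg1 (gamma-actin) was at 34.3, 34.5 and 25.4 TPM and Tmsb4x, encoding an actin monomer binding peptide, at 0.855, 1.43 and 1.40 TPM, with 2, 3 and 3 counts in the 3 libraries. The share of 50-base stretches that also lay in transcripts of other genes was 44.9% for Actg1, 12.2% for Actb and 0% for Tmsb4x. The sources used here do not say how reads that fit several places were counted, and the part of copies elsewhere in the genome in these low values was not tested.

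**Figure D3:**
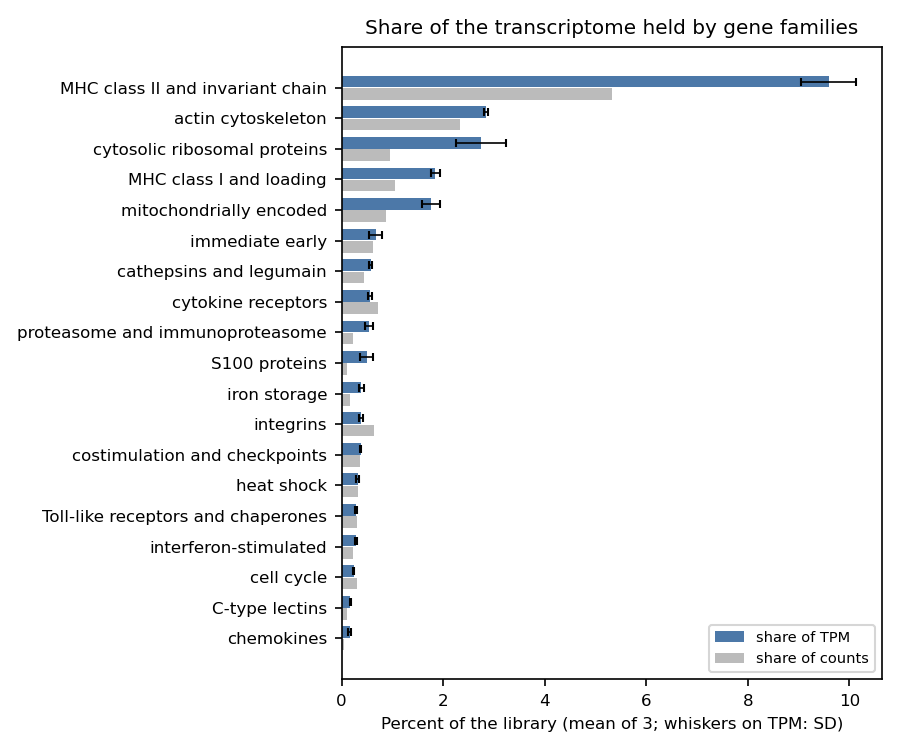
Percent of TPM (blue, mean of 3 libraries with SD) and of counts (grey, mean) held by 19 gene families. MHC class II with the invariant chain held 9.59% of TPM and 5.32% of counts, and every other family shown held under 3% of TPM.

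Ribosomal protein and mitochondrial genes were uneven within their families. The 77 cytosolic ribosomal protein genes held 2.74% ± 0.501 of TPM and 0.947% of counts and ranged from Rpl8 at 3172, 2641 and 2600 TPM to Rpl13 at 2.20, 0.817 and 3.60 TPM. Of the 50-base stretches of Rpl13, 80.3% also lay in transcripts of other genes, and of those of Rpl8 6.30%. The median level was 285 TPM over the 24 ribosomal genes with under 25% of such stretches shared, 74.6 TPM over the 32 with 25% to 50%, 99.4 TPM over the 13 with 50% to 75% and 14.0 TPM over the 8 with 75% or more, with ranges that overlapped (3.84 to 2804, 2.94 to 1641, 4.81 to 1662 and 2.21 to 233 TPM). Untreated 2 was the highest library in 63 of the 77 genes, which had a median length of 703 bases, and with the trend in length removed in 25 of the 46 with a mean of at least 10 CPM, against 28.1% and 38.6% of all such genes. Among 15 genes of the mitochondrial genome, which held 1.75% ± 0.175 of TPM, COX1 was at 4677, 3939 and 4543 TPM, CYTB at 3980, 3149 and 3702 TPM and ND1 at 3277, 2562 and 2912 TPM. COX2 and COX3, subunits of the same respiratory complex as COX1, were at 15.5, 12.6 and 21.5 TPM and 2.56, 4.06 and 5.58 TPM, and 100% and 99.9% of their stretches were shared with transcripts of other genes, against 51.1% for COX1 and 0% for CYTB. These genes, like Gapdh at 21.4, 16.8 and 17.5 TPM with 58.4% shared, have levels that are uncertain for the same reason as that of Actg1.

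The markers of splenic DCs described next were chosen with earlier results of these data known. Their presence is therefore not a test of the label of the cells. All 6 label markers were present in every library, and 5 of them were above 100 TPM in each. Itgax, encoding the integrin chain CD11c of DCs (Entrez 16411, chromosome 7, 128129526 to 128150657), was at 1202, 1424 and 1436 TPM. Sirpa, encoding the receptor SIRPα of cDC2 (Entrez 19261, chromosome 2, 129591042 to 129632228), was at 675, 858 and 887 TPM. In both genes untreated 2 was lowest, and after removal of the trend with length their CPM values were 2248, 2171 and 2211 for Itgax and 1340, 1367 and 1429 for Sirpa. Flt3, the receptor for the growth factor on which DCs depend, was at 350.1, 421 and 372 TPM. Clec4a4, encoding DCIR2, was at 342, 329 and 329 TPM, and Esam, the adhesion gene that marks a part of cDC2, at 125, 117 and 99.4 TPM. The order of mean TPM among the 6 was Cd74, Itgax, Sirpa, Flt3, Clec4a4 and Esam. The ranges of neighbours in this order did not overlap. Flt3 and Clec4a4 lay closest, and the gap between the lowest Flt3 value (350 TPM) and the highest Clec4a4 value (342 TPM) was smaller than the SD of Flt3 (36.2 TPM).

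Genes shared by conventional DCs were uniformly present, with all 13 of the core list above 10 TPM in every library. Spi1, encoding the transcription factor PU.1, was at 1166, 1122 and 1150 TPM, and Zbtb46, a factor of conventional DCs, at 101, 125 and 134 TPM. Kit, a receptor also found on progenitors, was at 229.6, 307 and 277 TPM and the dipeptidase gene Dpp4 at 221, 269 and 266 TPM. In a bulk sample, fewer cells of a type and less RNA per cell cannot be told apart, here and in all levels below.

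Genes of the cDC2 subset were all detected, with 15 of 17 above 10 TPM in every library and a list share of 0.355% ± 0.0189 of TPM. Cd4 was at 358, 384 and 404 TPM, the lymphotoxin gene Ltb at 807, 654 and 702 TPM, the Notch target Dtx1 at 351, 438 and 423 TPM and the lectin gene Cd209a at 329, 313 and 355 TPM. The cDC2 transcription factor genes Irf4 and Klf4 were at 87.3, 103 and 95.8 TPM and 79.8, 112 and 81.96 TPM. Cd4 differed least among the libraries, by a ratio of 1.06 between the highest and lowest CPM. The lectin genes Clec10a and Mgl2, which mark cDC2 of other organs, were at 10.7, 8.91 and 13.5 TPM and 6.84, 4.73 and 6.04 TPM.

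Markers of both described parts of splenic cDC2 were present. On the list of the ESAM-high part, which depends on Notch2, 13 of 14 genes were above 10 TPM in every library, led by Cd7 at 1172, 1074 and 935 TPM and the adhesion receptor gene Adgre5 at 797, 912 and 938 TPM. Tbx21, encoding the factor T-bet of one described cDC2 group, was at 45.6, 58.1 and 51.1 TPM. On the list of genes of the ESAM-low part that are shared with monocytes, 7 of 10 were above 10 TPM in every library. It was led by the lysozyme gene Lyz2 at 1009, 689 and 1269 TPM, with Csf1r at 202, 232 and 266 TPM and Ccr2 at 35.8, 46.2 and 68.1 TPM. Untreated 4 was the highest library in all 9 genes of this list with a mean of at least 1 TPM, as in 4179 of 12232 genes over the whole table.

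Genes of the cDC1 list were split, with 8 of 18 above 10 TPM in every library and 3 above 100 TPM. The median member was at 10.3 TPM, below the 91.2 TPM of the cDC2 list but above the 0.309 TPM over all genes. Among all 27179 genes, 10 TPM was reached in every library by 8489 and 100 TPM by 1775. Cd8a, against whose product the cells were sorted, was at 1.56, 3.36 and 0.998 TPM, from 17, 33 and 10 counts. Xcr1 was at 1.99, 2.65 and 1.89 TPM, the integrin gene Itgae of CD103 at 0.564, 0.697 and 0.546 TPM and the dead-cell receptor gene Clec9a at 12.2, 15.4 and 18.8 TPM. All 4 lay under 20 TPM in every library. In contrast Wdfy4, needed for cross-presentation by cDC1, was at 371, 695 and 710.2 TPM and Batf3, a factor needed for cDC1 development, at 386, 299 and 259.6 TPM. Wdfy4 is 9681 bases long and Batf3 712 bases, and with the trend in length removed their CPM values were 2124, 2290 and 2315 and 93.9, 94.8 and 81.5. Irf8, encoding another factor of cDC1, was at 33.9, 40.4 and 33.2 TPM, below Irf4 in every library.

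Genes of plasmacytoid and transitional DCs were split in the same way. Siglech, encoding a receptor of plasmacytoid DCs, was at 1.55, 1.59 and 1.17 TPM, and Klk1 and Dntt had no count in any library, where 3 counts would be 0.382, 0.373 and 0.365 CPM. Irf7, Bst2, Tlr9 and Spib, which other DCs also express, led the list with means of 275, 145, 143 and 121 TPM. Genes that rise as DCs mature and migrate were present with 11 of 14 above 10 TPM in every library. The NF-κB gene Relb was at 730.1, 713 and 678 TPM, the bundling protein gene Fscn1 at 249.5, 275 and 261 TPM and the homing receptor gene Ccr7 at 232, 202 and 165 TPM. The chemokine gene Ccl17 was at 0.557, 1.24 and 0 TPM.

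**Figure D4:**
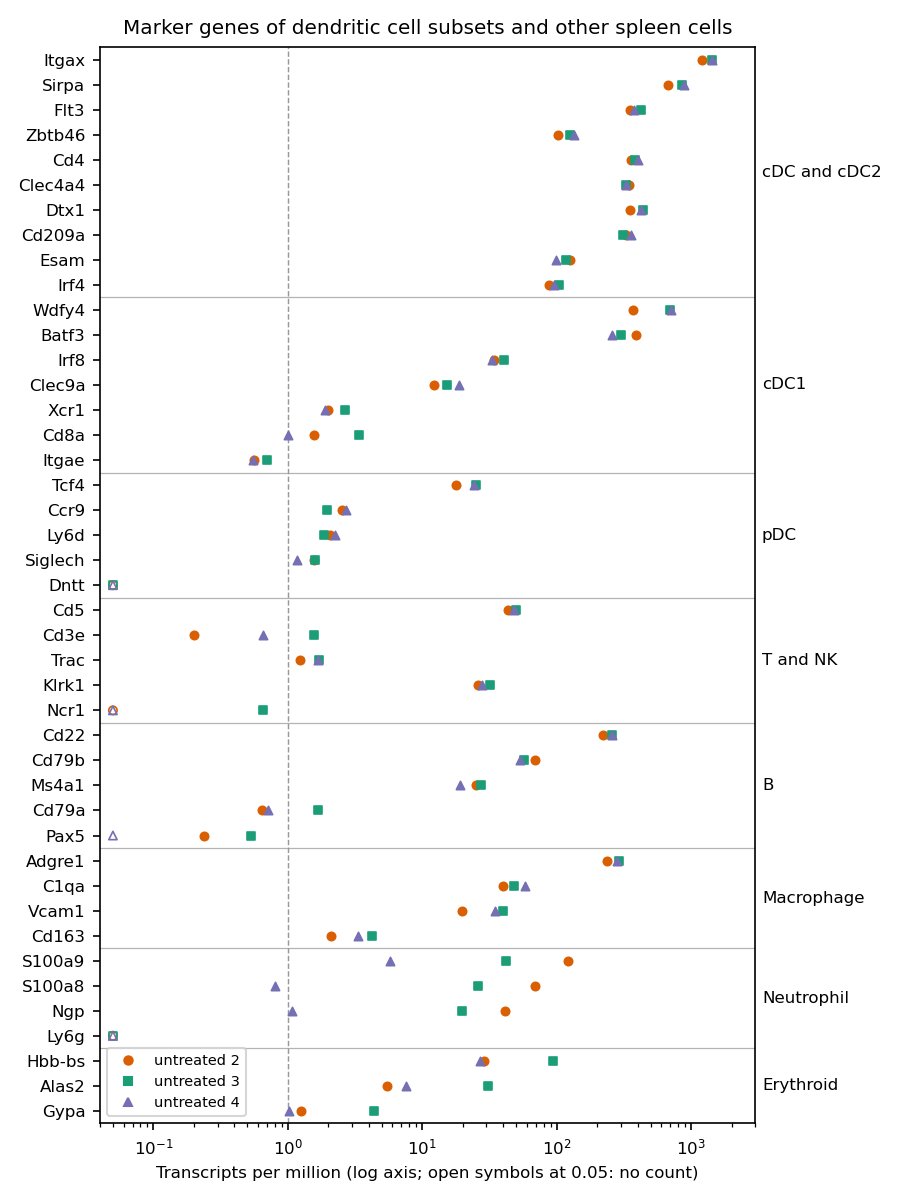
TPM on a log axis of marker genes of DC subsets and of other spleen cells in each untreated library, with open symbols at 0.05 for no count and a dashed line at 1 TPM. Markers of cDC2 lie near or above 100 TPM, those that define cDC1 and plasmacytoid DCs mostly below 20 TPM, and the neutrophil and erythroid genes differ most among the libraries.

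Markers of other cells that a spleen sort could hold were measured in the same libraries. Of 12 T cell genes 6 had a mean under 1 TPM, a share near the 55.0% of all genes of the table. Cd3e was at 0.199, 1.55 and 0.652 TPM and Cd3g at 0, 0.623 and 0 TPM, and the list summed to 62.3, 76.4 and 65.9 TPM. Cd5 at 43.6, 49.7 and 47.8 TPM, which some DCs are known to carry, and Il7r at 10.98, 16.4 and 12.1 TPM led it. Of 10 natural killer cell genes 8 had a mean under 1 TPM, with Ncr1 at 0, 0.653 and 0 TPM, while Klrk1 was at 25.8, 31.6 and 27.8 TPM. Untreated 3 had the highest sum of both lists, at 76.4 TPM for T cells and 40.6 TPM for natural killer cells.

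B cell genes were split. Pax5 was at 0.237, 0.527 and 0 TPM and Ebf1 at 0.127, 0 and 0.139 TPM, and Vpreb3 had no count in any library. The inhibitory receptor gene Cd22 was at 219.7, 257 and 257 TPM, the B cell receptor chain gene Cd79b at 68.4, 57.4 and 53.2 TPM and Ms4a1, which encodes CD20, at 25.2, 27.3 and 18.98 TPM. Cd79a, whose product pairs with that of Cd79b, was at 0.648, 1.68 and 0.706 TPM, far below Cd79b in every library. The plasma cell list was led by Xbp1 at 209.9, 174 and 213 TPM, which secretory cells of many kinds express, with Jchain at 43.7, 41.2 and 23.03 TPM and Sdc1 at 0, 0.313 and 0 TPM. Igha, the IgA heavy chain gene, which was chosen after its values were seen, was at 96.6, 128 and 11.7 TPM, with 46 counts in untreated 4 against 413 and 492 in the others.

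Neutrophil transcripts differed most among the libraries. The list of 12 genes summed to 289, 113 and 12.6 TPM in untreated 2, 3 and 4. The calprotectin genes S100a9 and S100a8 were at 120.3, 41.8 and 5.76 TPM and 68.7, 26.01 and 0.797 TPM, and the granule gene Ngp at 40.96, 19.8 and 1.08 TPM. Untreated 2 was highest and untreated 4 lowest in 6 of the 8 genes with a mean of at least 1 TPM, Mpo and Elane being the exceptions, and this order was found in 1784 of 12232 such genes over the whole table. The list held 0.0138% ± 0.0140 of TPM, and 0.00628% without untreated 2. Ly6g, which defines mature neutrophils, had no count in any library. Their part in any other difference among the libraries was not tested.

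Erythroid transcripts were highest in untreated 3. The list summed to 109, 275 and 109 TPM, and all 8 of its genes with a mean of at least 1 TPM had their highest value in untreated 3, against 37.7% of such genes over the whole table. The list held 0.0164% ± 0.00959 of TPM, and 0.0109% without untreated 3. The globin genes Hbb-bs and Hba-a2, whose near-identical copies make the division of reads uncertain, were at 28.7, 93.2 and 26.9 TPM and 21.9, 64.5 and 21.1 TPM. Alas2, the first enzyme of haem synthesis in red cell precursors, was at 5.50, 30.6 and 7.57 TPM.

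Macrophage and monocyte genes were present in part. The red pulp macrophage list summed to 615, 805 and 849.9 TPM, and 13 of its 15 genes had their lowest value in untreated 2, against 54.3% of genes over the whole table. With the trend in length removed it was 10 of the 11 with a mean of at least 10 CPM, against 39.6%. Adgre1, encoding F4/80, was at 236, 289.6 and 281 TPM, the haem-degrading enzyme gene Hmox1 at 55.6, 84.7 and 111 TPM and the complement gene C1qa at 39.98, 47.99 and 58.01 TPM. Spic, the factor that defines these macrophages, was at 28.3, 37.5 and 31.8 TPM, and the haemoglobin scavenger receptor gene Cd163 at 2.10, 4.26 and 3.34 TPM. With the trend in length removed, Hmox1 still had its lowest CPM in untreated 2, at 34.1, 55.8 and 72.4. Of the monocyte list, Nr4a1, Ms4a4c and Csf1r led with means of 545, 244 and 233 TPM, while F13a1 was at 1.39, 0.974 and 8.11 TPM, highest in untreated 4, and Vcan at 0.0585, 0 and 0.468 TPM. Of the marginal zone macrophage list, Cd68 was at 683, 711 and 762 TPM and held 94.5% of the list. Marco, which defines those cells, was at 1.44, 5.46 and 1.26 TPM, and Siglec1, also on the list, at 0.314, 1.30 and 1.47 TPM.

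Most genes of platelets, granulocytes of other kinds and stroma had a mean under 1 TPM, as did 55.0% of all genes of the table. Of 7 platelet genes 5 were under it, of 10 genes of mast cells, basophils and eosinophils 7, and of 12 genes of stroma and endothelium 9. Pecam1, at 80.1, 102 and 95.7 TPM, held 91.9% of the stroma and endothelium list, and Cdh5, a cadherin of endothelium, was at 0.934, 1.44 and 1.18 TPM.

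Of 18 genes of Toll-like receptors and their chaperones, 13 were above 10 TPM in every library. Unc93b1, whose product carries Toll-like receptors to endosomes, was at 1139, 1169 and 1174 TPM. Tlr9, the receptor for CpG DNA, was at 98.2, 160.3 and 169 TPM, Tlr13, a receptor for bacterial ribosomal RNA, at 100.1, 136 and 142 TPM, and Tlr7, a receptor for single-stranded RNA, at 92.9, 119 and 123 TPM. All 3 were lowest in untreated 2, also with the trend in length removed, where Tlr9 had CPM values of 154, 214 and 229. Over the list, untreated 2 was lowest in 14 of 18 genes, against 54.3% of genes with a mean of at least 1 TPM. With the trend removed it was lowest in 11 of the 15 with a mean of at least 10 CPM, against 39.6% of all such genes. At the surface, Tlr1 was at 179.7, 199 and 195 TPM and the Toll-like receptor relative Cd180 at 235, 294 and 306 TPM. Tlr4, the receptor for lipopolysaccharide, was at 4.54, 6.38 and 8.69 TPM, its co-receptor gene Cd14 at 5.17, 3.19 and 4.38 TPM and Tlr3, a receptor of cDC1 for double-stranded RNA, at 5.63, 10.9 and 8.30 TPM. Of 16 cytosolic sensor genes measured, all were above 10 TPM in every library, led by Nod1, Gsdmd and Sting1 with means of 235, 221 and 213 TPM.

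C-type lectin and Fc receptor genes were led by few members. Clec4a1 was at 365, 332 and 321 TPM, next to Clec4a4 and Cd209a, and the beta-glucan receptor gene Clec7a (Dectin-1) at 131, 118 and 139 TPM. Of 27 lectin genes 12 were above 10 TPM in every library and 5 had a mean under 1 TPM, among them Cd207 (Langerin) at 0, 0.625 and 0.204 TPM and Clec4e (Mincle) at 0.341, 0.632 and 0.620 TPM. Fcer1g, the signalling chain of Fc receptors, was at 1387, 1202 and 1223 TPM and held 78.3% of its list. The inhibitory receptor gene Fcgr2b was at 64.3, 58.1 and 73.5 TPM, and Fcrl1, an Fc receptor-like gene known from B cells, at 119.9, 124 and 122 TPM.

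Cytokine genes spanned a wide range. Of 30 genes 10 were above 10 TPM in every library and 9 had a mean under 1 TPM, against 55.0% of all genes of the table under 1 TPM, and Il12a, Ifnb1 and Ifna4 had no count in any library. Il6, Il10 and Il23a were at 1.05, 0.293 and 0.575 TPM, 0.219, 0 and 0 TPM and 0, 0 and 0.230 TPM. The list was led by Ltb and Tgfb1, with Tgfb1 at 565, 620.3 and 630.0 TPM, and by Il1b at 439, 287 and 408 TPM. Il12b, encoding the shared chain of interleukins 12 and 23, was at 6.46, 5.06 and 6.08 TPM. Among chemokines Ccl5 was at 1325, 1140 and 963 TPM and held 71.2% of the list, and Ccl3 and Ccl4 were at 179, 141 and 99.2 TPM and 118, 73.4 and 49.7 TPM, with untreated 2 highest and untreated 4 lowest in all 3. Ccl5 was at 229, 276 and 231 CPM with the trend in length removed, so that untreated 2 was its lowest library.

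Receptors for cytokines were broadly present, with 29 of 32 genes above 10 TPM in every library. Ifngr1, a chain of the interferon-gamma receptor, was at 683, 733 and 718 TPM, Il10ra at 542, 566 and 589 TPM and the common gamma chain gene Il2rg at 551, 514 and 526 TPM. Csf2ra, a chain of the receptor for GM-CSF, was at 479, 449 and 507 TPM. Among receptors for migration, Ccr7 led and was followed by Gpr183, which guides cDC2 to the bridging channels of the spleen, at 86.8, 74.1 and 88.7 TPM, and Cxcr4 at 68.9, 65.9 and 71.1 TPM. S1pr1, an exit receptor of lymphocytes, was at 0.0946, 0.526 and 0.515 TPM.

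Costimulatory and inhibitory surface genes were expressed in these libraries, whose treatment label reads None. Icosl, the ligand of the T cell receptor ICOS, was at 603, 689 and 604 TPM, and Cd83 at 409, 371 and 395 TPM. Cd86 and Cd80, the ligands of CD28, were at 98.7, 88.7 and 102 TPM and 69.9, 72.5 and 70.7 TPM, and Cd40, through which T cells activate DCs, at 133, 108 and 109 TPM. Cd274, which encodes PD-L1, was at 184, 219 and 201 TPM, above Pdcd1lg2 (PD-L2) at 33.6, 44.2 and 45.1 TPM. Tnfsf4 (OX40L) had a mean of 1.02 TPM and Cd70 of 0.615 TPM. Of the integrin genes, Itgax was followed by its partner chain gene Itgb2 at 1009, 1086 and 1223 TPM and by Itgb7 at 403, 418 and 401 TPM.

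The list of 60 transcription factor genes, which does not hold Fos and Jun, was led by Spi1, and Nfkb1 and Relb followed with means of 711 and 707 TPM. Id2, an inhibitor of E proteins in conventional DCs, was at 526, 484 and 433 TPM and Irf5 at 452, 488 and 485 TPM. Of the 60, 50 were above 10 TPM in every library, and Ikzf2 had a mean under 1 TPM. In the Notch pathway, of 29 genes measured 17 were above 10 TPM in every library. Notch2 was at 52.8, 113 and 119 TPM, whereas Notch1 and Notch3 were at 0.755, 1.75 and 1.35 TPM and 0, 0.0401 and 0.0393 TPM. Notch2 is 10506 bases long, and with the trend in length removed its CPM values were 337, 398 and 414. The fringe glycosyltransferase gene Lfng was at 228, 241 and 249 TPM, and Hes1, a Notch target, at 71.7, 56.9 and 50.6 TPM. The Notch ligand genes Dll1 and Jag2 had means under 1 TPM.

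The spread among the libraries exceeded counting error. A gene was counted as variable when its highest library was over 2 times its lowest in CPM with TMM-normalized library sizes. Of 8809 genes with a mean of at least 10 CPM, 178 were variable, which is 2.02% of them. With the trend in gene length removed from each library it was 57, or 0.647%, and 45 genes were on both counts. Of the 178, untreated 2 was the lowest library in 116, with a median length of 9000.5 bases, and the highest in 55, with a median length of 667 bases, against 2965 bases over all 8809. Leaving out untreated 2 left 13 variable genes, and leaving out untreated 4 left 109. The median coefficient of variation of a gene was 10.6%, of which counting error alone would give 4.89%. The biological coefficient of variation, edgeR's common spread beyond counting error, was 0.143, and it was 0.0559 without untreated 2.

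The variable genes were counted by family, against the 2.02% given for all genes. No gene was variable among the 11 of MHC class II, the 18 of class I, the 13 of the conventional DC core list or the 15 cDC2 genes with a mean of at least 10 CPM, and lists of these sizes would hold less than 1 such gene at the share for all genes. Variable genes numbered 3 of 15 in the immediate early list, 2 of 10 among heat shock genes, 2 of 2 among neutrophil genes and 2 of 4 among erythroid genes with that mean. The same numbers of genes held in these 4 lists with the trend in length removed, against 0.647% for all genes. Among cytosolic ribosomal genes it was 5 of 46, and 1 with the trend removed. Red pulp macrophage genes went the other way, from 1 to 3 of 11, and iron storage genes from 1 to 2 of 7.

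The inducible heat shock genes and most immediate early genes, known to rise fast on stress or stimulation, were lowest in untreated 4. Hspa1b, encoding an inducible HSP70 (Entrez 15511, chromosome 17, 34956429 to 34959238), was at 481, 225 and 99.1 CPM in untreated 2, 3 and 4, a ratio of 4.85 between the highest and lowest library and the largest among genes named by their ratio. Its neighbour Hspa1a (Entrez 193740, chromosome 17, 34969359 to 34972156) was at 264, 128 and 55.5 CPM, a ratio of 4.76. These 2 genes share 62.3% and 60.3% of their 50-base stretches with other genes, so their division of reads is uncertain, and both ran in the same order of libraries. Fos and Fosb, which encode AP-1 subunits, were at 785, 909.6 and 414 TPM and 249, 308 and 127 TPM, and Atf3, encoding a stress-induced factor, at 104, 112 and 44.5 TPM. In these 3 genes untreated 2 and 3 lay close together and untreated 4 lay lower. Zfp36, encoding an RNA-binding protein that shortens the life of cytokine transcripts, was at 2478, 2564 and 1791 TPM. The 16 immediate early genes summed to 7196, 7716 and 5274 TPM, with the lowest value in untreated 4 for 14 of them, against 24.0% of genes over the whole table. The constitutive gene Hsp90ab1 was at 1406, 1495 and 1496 TPM and the endoplasmic chaperone gene Hspa5 at 918, 788 and 860.0 TPM, without the order of Hspa1b.

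**Figure D5:**
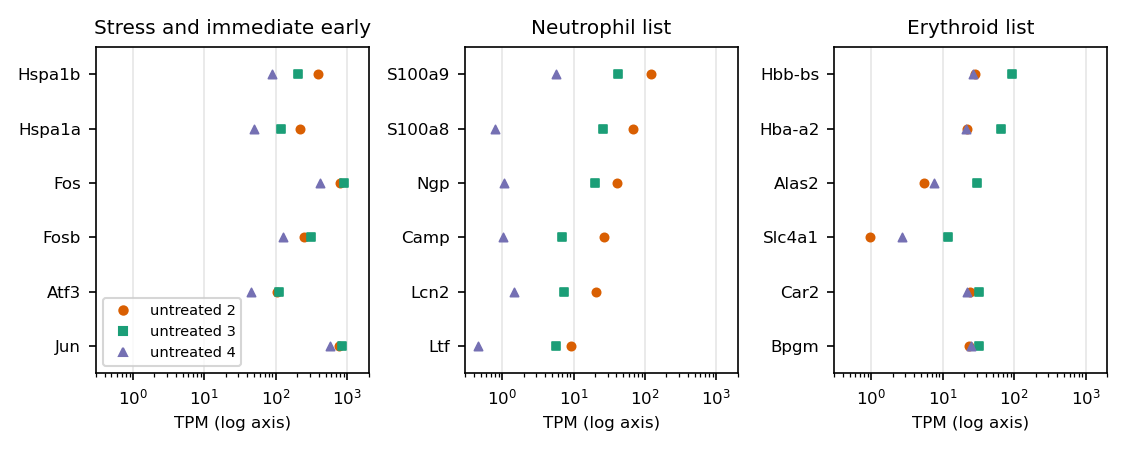
TPM on a log axis of 6 genes each of stress and immediate early, neutrophil and erythroid lists, 1 symbol for each untreated library. Untreated 4 is lowest for the stress and neutrophil genes shown, and untreated 3 is highest for the erythroid genes shown.

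Other genes with the largest ratios differed in their order of libraries. Lyz1, a lysozyme gene next to Lyz2 on chromosome 10, was at 23.02, 8.85 and 29.5 CPM, with untreated 3 lowest. Lyz2 itself was at 466, 285 and 529.7 CPM in the same order. Of the 50-base stretches of Lyz2 15.4% also lay in transcripts of other genes, so the division of reads is uncertain. The ubiquitin ligase gene Cbl was at 65.05, 187 and 197 CPM, and the ratio was 3.02, or 2.55 with the trend in length removed. Lyst, the lysosomal trafficking gene of 11806 bases, was at 294, 703 and 804 CPM, and its ratio went from 2.73 to 1.56. Dst, Herc2, Vps13c and Mdn1, with lengths from 11523 to 23242 bases, had ratios of 2.79, 2.78, 2.68 and 2.61, and of 1.13, 1.39, 1.54 and 1.21 with the trend removed. Hipk2 and Bmpr2, a kinase and a receptor gene, had ratios of 2.75 and 2.71, and with the trend removed of 2.41 and 2.56. Each of these 8 genes from Cbl to Bmpr2 had its lowest value in untreated 2. Ccl4 was the remaining one, at 34.03, 18.9 and 12.9 CPM, with the highest value in untreated 2 and a length of 660 bases. At the other end, Necap1, Mta3, Krit1, Plekha3, Kmt5a and Blzf1 had the smallest ratios, from 1.0006 to 1.0035, and Mta3, a gene of a chromatin remodelling complex, was at 172, 172 and 172 CPM.

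The scale decided which genes counted as abundant. Of the 100 genes of highest TPM and the 100 with the most counts, 53 were the same, and the median length was 1369 bases in the first set and 3184.5 bases in the second. The 100 genes with the most counts held 18.8% ± 0.666 of counts. Atox1, a copper chaperone gene of 438 bases, ranked 45 by TPM and 697 by CPM, and Rpl32, of 504 bases, ranked 97 and 1123. Ccl5 ranked 74 by TPM and 800 by CPM, Ifitm3, an antiviral membrane protein gene, 98 and 834, and H2-DMb2 100 and 668. Rplp1, Rps15 and the microRNA gene Mir5107 were the others with the largest differences. Mir5107 (chromosome 18, 60812076 to 60812163) lies inside the span of Cd74 (60803849 to 60812652), so the division of reads between them is uncertain. The 953 gene models shorter than 200 bases held 1.78% ± 0.502 of TPM but 0.0605% of counts. A model of 82 bases without a symbol among them (Entrez 100628626) was at 12716, 8050 and 5533 TPM, the sixth highest mean, and its rank by counts was 617.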

How the data were processed

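The authors deposited integer counts of reads for 27179 Entrez gene IDs, with a gene length in bases beside them. The submitters' processing notes name CASAVA, featureCounts and mm10, with no version. The sources used here give neither the aligner nor the strand setting nor the handling of reads that fit several genes, so overlapping antisense genes and near-identical copies cannot be told apart. The values deposited for each sample equalled the matching column of the whole-series table.

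RefSeq on GRCm38.p6 gave symbols and positions for 25275 IDs. The other 1904, without a match, held 0.301% to 0.392% of a library's counts. Counts were turned into CPM, and into TPM with the deposited length. TMM factors (1.018, 0.997 and 0.986) came from edgeR 4.0.16 in R 4.3.3, over all genes without a filter. CPM with these factors served to describe spread among genes with a mean of at least 10 CPM. The common dispersion, also from edgeR, was taken over genes kept by filterByExpr (minimum count 10, minimum total 15). The trend with length was a lowess curve (fraction 0.3, statsmodels 0.14.6) of each library's log2 deviation on log2 length. The order of libraries with this trend removed was chosen after the data were seen. Shared stretches of 50 bases were counted in the transcripts of GENCODE M21. The steps were tested on simulated data.

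Named genes were the 25 of highest mean TPM, the label markers, up to 6 leading members of each list, list members with a mean under 1 TPM, the 12 largest and 6 smallest ratios between libraries among genes with a mean of at least 20 CPM, and the 8 largest differences between rank by TPM and by CPM. The genes outside this rule were named after their values were seen. They are Actg1, Atf3, Aurkb, COX2, COX3, Ccnb2, Cd14, Cd163, Cd40, Cd79a, Cd80, Cd86, Cd8a, Clec10a, Clec9a, Ctsl, Elane, F13a1, Fosb, Gapdh, Gm9794, H2-DMb1, H2-Eb2, H2-Oa, H2-Ob, Hes1, Ifi44, Igha, Il12b, Klf4, Mgl2, Mki67, Mpo, Nlrc5, Notch1, Notch2, Pdcd1lg2, Rpl13, Siglec1, Siglech, Spic, Tap1, Tbx21, Tlr13, Tlr3, Tlr4, Tlr7, Tmsb4x, Tnfsf4, Xcr1 and Zbtb46. The libraries and gene lists were chosen with earlier results of these data known. A few listed genes are not reported here. Limits given as 3 counts cover counting error only, and each value after ± is the SD among the 3 libraries.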

Additional observations from a re-analysis of the deposited data

How the results depend on the processing

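No paired analysis was possible because the values come from 1 group with no test. Of 88 alternatives to the principal values 65 stayed within the spread of the libraries or within 1.5 times for a count. CPM in place of TPM gave 0.404% for the cDC2 list, 0.280% for cDC1, 5.32% for MHC class II, 2.34% for actin and 0.877% for mitochondrial genes. Effective length gave 29.2% for the top 100 genes. Without gene models under 200 bases, an alternative chosen after the data were seen, the actin share was 2.89%. The count of genes over 2-fold was 741 at a minimum of 1 CPM, 73 at 50 CPM, 57 with the trend in length removed, 1273 over 1.5-fold, 13 over 3-fold, and 13 to 141 with 1 library left out (13 without untreated 2). The biological coefficient of variation was 0.0559 to 0.175 with 1 library left out and 0.0893 with the trend in length removed, also chosen after the data were seen. The correlation with length was -0.66, 0.52 and 0.48 in untreated 2, 3 and 4 at a minimum of 1 CPM, and 0.77 in untreated 3 at 50 CPM. With 1 library left out it was -0.76 to -0.73 in untreated 2, 0.0213 to 0.76 in untreated 3 and -0.0213 to 0.73 in untreated 4, since without untreated 2 the other libraries had almost no trend. Of 180 alternatives for the remaining lists 36 moved, 23 of them with CPM and 12 with effective length. Depth limits genes near 3 counts, which are 0.382, 0.373 and 0.365 CPM, and with 3 libraries an SD is itself imprecise.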

Other observations

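Cell division genes were present in these sorted cells. All 25 genes of the list were above 1 TPM in every library and 24 were above 10 TPM. The replication helicase gene Mcm6 was at 179.6, 232 and 204 TPM, the DNA topoisomerase gene Top2a, expressed in dividing cells, at 143, 164 and 166 TPM and the proliferation marker gene Mki67 at 53.9, 93.7 and 94.6 TPM. With the trend in length removed Mki67 was at 326, 319.6 and 319 CPM, no longer lowest in untreated 2. Of the 23 listed genes with a mean of at least 10 CPM, 18 were then highest in untreated 2 and 0 in untreated 4. Over all genes with that mean the shares were 38.6% and 33.1%. The mitotic genes Ccnb2 and Aurkb were highest in untreated 2, at 92.9, 68.4 and 67.3 TPM and 74.2, 55.2 and 52.5 TPM. Both were named after their values were seen. In TPM, untreated 2 was highest in 13 of the 25 listed genes and lowest in 10, Mcm6, Top2a and Mki67 among these. Over genes with a mean of at least 1 TPM the shares were 28.1% and 54.3%. The list as a whole summed to 2336, 2437 and 2327 TPM.

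Interferon-stimulated genes were expressed without treatment, while the interferon genes Ifnb1 and Ifna4 had no count. Of 21 genes 20 were above 10 TPM in every library, and the list held 0.292% ± 0.0201 of TPM. Ifitm3 was at 1024, 785 and 941 TPM and the ubiquitin-like modifier gene Isg15 at 183, 129.8 and 155 TPM. Ifi44 was at 5.32, 2.63 and 1.93 TPM. No gene of this list had a highest library over 2 times its lowest among the 20 with a mean of at least 10 CPM, against 2.02% of all such genes, a share at which 20 genes would hold less than 1.

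Iron and glucose handling were led by a few genes. Fth1, the heavy chain of the iron store ferritin, was at 3882, 2935 and 3064 TPM, and the transferrin receptor gene Tfrc at 132, 155 and 147 TPM. Of the glycolysis list, Ldha was at 289, 254 and 271 TPM, Pkm at 254, 262 and 288 TPM and the glucose transporter gene Slc2a3 at 114, 142 and 156 TPM. S100a4, encoding a calcium-binding protein, was at 4263, 2447 and 2685 TPM, highest in untreated 2, and its CPM values with the trend in length removed were 684, 559 and 608.

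Xist, the long RNA of the inactive X chromosome, was at 64.6, 96.3 and 88.02 TPM. The Y-linked genes Uty, Kdm5d and Eif2s3y had no count in any library, and Ddx3y was at 0, 0 and 0.0673 TPM. Gm9794, a pseudogene by its annotation that was chosen after its values were seen, was at 1749, 1509 and 1557 TPM.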
